A study of Mus musculus with 4 samples.

Results

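The respiratory chain of the inner mitochondrial membrane was described here through 42 nuclear genes that encode subunits of complexes I, II, III and IV and the electron carrier cytochrome c. The genes were taken by name, and each array feature (probe set) whose platform annotation names exactly 1 gene, that gene being on the list, was used. Cox7b had no such probe set and is not analysed here. The other 41 genes had 83 probe sets, of 12393 genes and 22626 probe sets in all. Complex I had 20 genes (Nduf), complex II 4 (Sdh), complex III 7 (Uqcr and Cyc1) and complex IV 9 (Cox), and Cycs, which encodes cytochrome c, was kept apart. Where a gene had several probe sets, the one with the highest mean over the arrays stood for it.

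The 4 arrays hold RNA of 3T3-F442A cells, a mouse preadipocyte line, after differentiation into fat cells. The 2 shTRPV4 arrays come from cells with stable expression of a hairpin RNA against Trpv4, a calcium-permeable cation channel, and the 2 shGFP arrays from cells with a control hairpin against GFP. All cells were transduced with a hairpin retrovirus, kept in puromycin (2 ug/ml) for 2 days, and then given 850 nM insulin for 8 days with rosiglitazone, a PPAR gamma agonist, during the first 2 days. The labels name 1 hairpin per target and give neither its sequence nor whether the replicates were separate cultures, so the spread behind each p-value is that of these arrays and may be technical only. The titles write the line as 3T3F442A and the source names as 3T3F422A.

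Complex I oxidises NADH and complex II oxidises succinate, and both pass electrons to ubiquinone. Complex III moves them on to cytochrome c, and complex IV hands them to oxygen. Complexes I, III and IV pump protons, and ATP synthase uses the resulting gradient. Every complex except complex II also holds subunits encoded by mitochondrial DNA. White fat cells gain mitochondria as they differentiate, and in brown fat the gradient is spent as heat by an uncoupling protein.

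The targeted gene did not separate the groups. Trpv4 read 80.1 and 79.5 on the shTRPV4 arrays, against 43.7 and 93.8 on the shGFP arrays (log2 difference 0.32, 95% interval -0.55 to 1.19, and -0.09 without replicate 1 of shGFP), so the groups are named by their labels. The values are linear intensities as deposited. Differences, and whether the groups overlap, are taken on the quantile-normalized log2(intensity + 16) scale, shTRPV4 minus shGFP, and a call is a limma adjusted p under 0.05 over all 22626 probe sets. Over all 12393 genes, 661 were higher and 744 lower, which became 380 and 718 with the values as deposited and 1036 and 708 with median centring. The median difference over all genes was 0.02. Among 9 measured preadipocyte and fibroblast markers 0 rose and 7 fell (median -1.24), with summed intensities of 29645 and 30323 on the shTRPV4 arrays, against 43608 and 45563 on the shGFP arrays. Among 8 adipocyte markers 2 rose and 0 fell (median 0.26), with sums of 58677 and 61779 on the shTRPV4 arrays, against 54763 and 54467 on the shGFP arrays. No marker of either list was listed at 0. The part of these marker shifts in the respiratory chain values was not tested, and in such bulk RNA a change in the share of a cell type cannot be told apart from a change of RNA per cell.

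Most respiratory chain genes were slightly higher on the shTRPV4 arrays, and few passed the test. Of the 41 genes, 4 rose, 0 fell and 37 did not pass. The 4 that rose were Ndufs7, Ndufs1 and Ndufa10 of complex I and Sdhc of complex II, between 1.29-fold and 1.52-fold on the log2(intensity + 16) scale. The share called higher was 9.76% of the members, against 5.33% of all genes and 7.98% of the 6817 genes above the median intensity, where 40 of the 41 members lie. Of all genes 6% were called lower, and 8.45% of the brighter ones. By probe set, 4 of 83 members' probe sets (4.82%) were called higher and 0 lower, against 4.54% and 5.36% of all probe sets. Shares of calls this near the background are not a result about the respiratory chain. The counts depend strongly on the settings, from 0 to 17 genes higher and from 0 to 1 lower, as given in the closing section.

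The direction of the differences was more uniform than these counts of calls. Of the 41 genes, 35 (85.4%) had a positive difference, against 53.5% of all genes and 55.2% of those above the median intensity, and the median was 0.18, with quartiles at 0.08 and 0.24. Both shTRPV4 arrays lay above both shGFP arrays for 31 genes (75.6%), against 33.2% of all genes and 42.6% of the brighter ones. They lay below for 3, against 27.7% of all genes and 33.4% of the brighter ones. For the other 7 genes the arrays of the groups overlapped. The 95% interval lay above 0 for 16 genes (39%), against 17.9% of all genes and 24.8% of the brighter ones, and below 0 for 1, against 15.2% and 19.8%. With the values as deposited 35 differences were positive and the median was 0.21, against -0.01 over all genes. With median centring 40 were positive and the median was 0.31, against 0.09 over all genes. The brighter genes are not matched to the members in intensity. Above the 90th percentile lie 39 of the 41 members and 1337 of all 12393 genes, and no shares were taken there.

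Most differences were small on the quantile-normalized scale, as they were over all genes. The interval lay within -0.5 to 0.5 (a change of less than 1.41-fold either way) for 32 of the 41 genes (78%), against 48.7% of all genes and 59.5% of those above the median intensity. Its median half-width was 0.19 for the members, 0.26 over all genes and 0.22 for those above the median intensity. A narrower interval lies within the band more readily, so this share does not measure size alone. Of the members, 17.1% differed by more than 0.3 upward and 2.44% by more than 0.3 downward. These shares were 15.8% and 14.4% of all genes, and 18% and 15.6% of those above the median intensity. These counts were not made with other scalings. With median centring the median difference of the members was 0.31, against 0.18 here, so the sizes depend on the scaling. Of the 41 representative probe sets, 39 were brighter than the 90th percentile of all probe sets, so dim signal limits few of these values. The shares of other genes given here were not taken above that percentile.

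**Figure D1:**
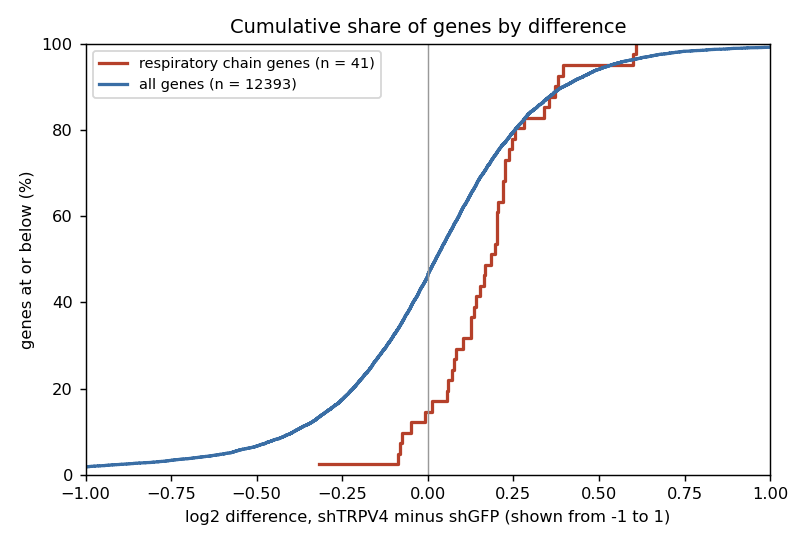
Cumulative share of genes (vertical axis, percent) at or below each log2 difference, shTRPV4 minus shGFP (horizontal axis, shown from -1 to 1), for 41 respiratory chain genes and for all 12393 genes. The respiratory chain curve runs from -0.32 to 0.61 and lies to the right of the curve of all genes through its middle, with medians of 0.18 and 0.02.

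**Figure D2:**
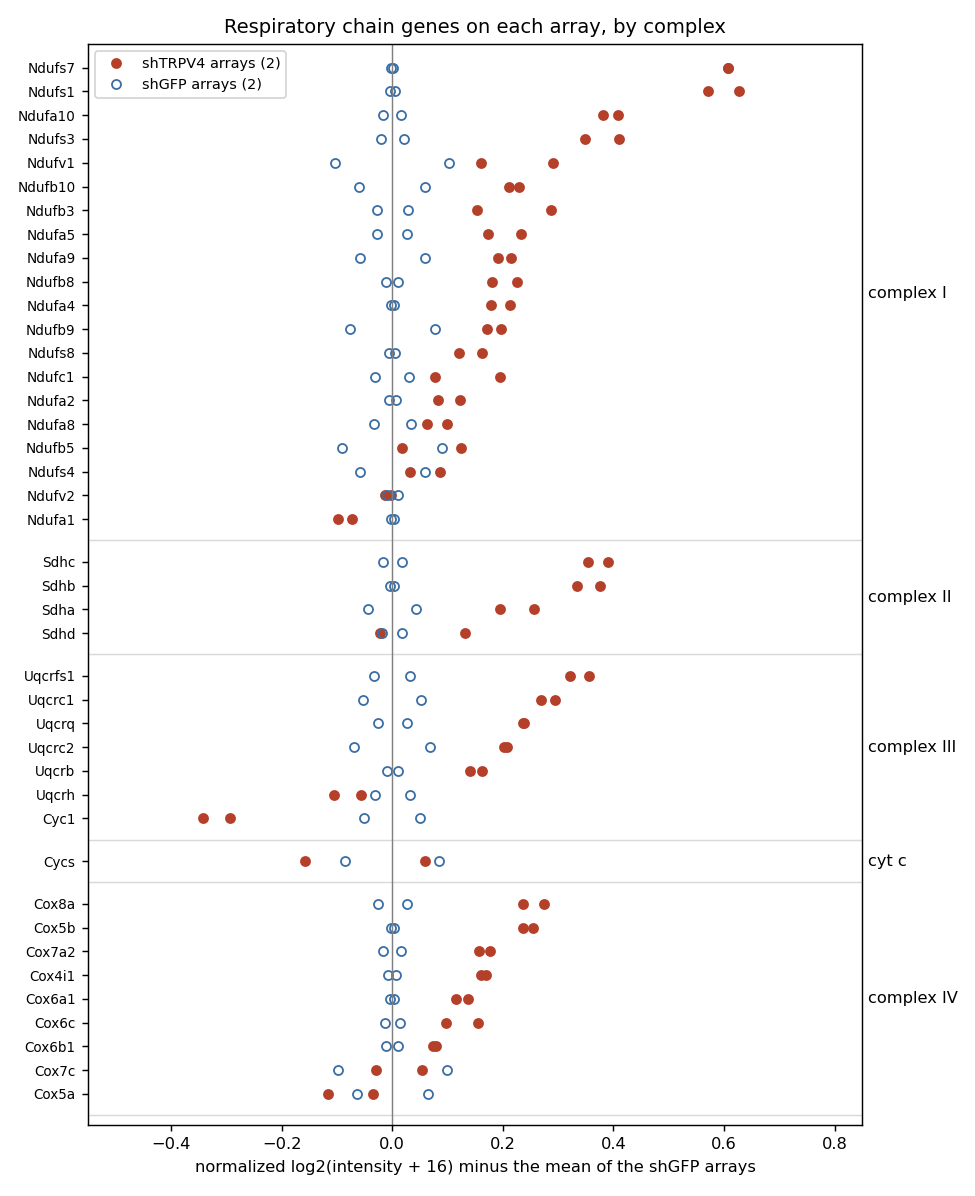
Normalized log2(intensity + 16) of 41 respiratory chain genes on each of the 4 arrays, as the difference from the mean of the shGFP arrays, grouped by complex and sorted by difference. Filled points are the 2 shTRPV4 arrays and open points the 2 shGFP arrays. In 31 genes both filled points lie to the right of both open points, and in Ndufa1, Uqcrh and Cyc1 both lie to the left.

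Complex I held the largest differences of all members, in Ndufs7 and Ndufs1, which both carry iron-sulfur clusters. Ndufs7, the subunit that holds the last iron-sulfur cluster before ubiquinone, read 2899 and 2966 on the shTRPV4 arrays, against 1912 and 1985 on the shGFP arrays. The groups did not overlap, and the difference was 0.61 (1.52-fold, SE 0.06, limma adjusted p = 0.0236). Its further probe set, at 0.55, did not pass (limma adjusted p = 0.0551). Ndufs1, the largest subunit and part of the arm that receives electrons from NADH, read 2209 and 2382 on the shTRPV4 arrays, against 1522 and 1563 on the shGFP arrays. Again both shTRPV4 arrays were the higher ones, by 0.60 (1.51-fold, SE 0.06, limma adjusted p = 0.0258). Ndufa10, an accessory subunit of the membrane arm, read 3487 and 3648 on the shTRPV4 arrays, against 2646 and 2781 on the shGFP arrays, a difference of 0.40 (1.31-fold, SE 0.06, limma adjusted p = 0.0446).

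The calls for Ndufs7 and Ndufs1 were lost with an offset of 1 (limma adjusted p = 0.0528 and 0.0545), with any 1 array left out and with a replicate block. That for Ndufa10 was lost in those settings and also with the values as deposited (limma adjusted p = 0.0658).

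The other subunits around these clusters did not pass. Ndufs3, a core subunit of the arm that reaches ubiquinone, read 3322 and 3568 on the shTRPV4 arrays, against 2593 and 2743 on the shGFP arrays. Its groups did not overlap, and its difference of 0.38 missed the threshold (interval 0.19 to 0.57, limma adjusted p = 0.0516). Ndufs8, which carries iron-sulfur clusters of the same arm, read 3221 and 3226 on the shTRPV4 arrays, against 2858 and 2962 on the shGFP arrays (0.14, interval -0.04 to 0.32). Ndufv1, which binds NADH and the flavin, read 3508 and 3300 on the shTRPV4 arrays, against 3065 and 2748 on the shGFP arrays (0.23, interval -0.08 to 0.53). Its partner Ndufv2 gave nearly equal values, 3537 and 3665 on the shTRPV4 arrays, against 3575 and 3627 on the shGFP arrays (-0.01, interval -0.18 to 0.17), and all 3 of its probe sets lay between -0.008 and -0.002. Within the NADH-oxidising arm the differences were 0.60 for Ndufs1, 0.23 for Ndufv1 and -0.01 for Ndufv2, and no test compared them.

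Apart from Ndufa10, the accessory subunits of complex I among the members differed by -0.09 to 0.22. Ndufa4, a small subunit that is now assigned to complex IV in mammals and is kept here under its Nduf name, differed by 0.20 (interval 0.02 to 0.37). Ndufa5, Ndufa9, Ndufb3, Ndufb8, Ndufb9 and Ndufb10 lay between 0.18 and 0.22, with both shTRPV4 arrays above both shGFP arrays in each. Ndufc1, Ndufa2 and Ndufa8 differed by 0.14, 0.10 and 0.08. Ndufb5 and Ndufs4, a subunit whose loss causes a fatal brain disease in mice, differed by 0.07 and 0.06 with overlapping arrays. Ndufa1, encoded on the X chromosome, read 5641 and 5714 on the shTRPV4 arrays, against 5850 and 5917 on the shGFP arrays, the lowest difference of complex I (-0.09, interval -0.26 to 0.09). The sign for Ndufa1 and Ndufv2 turned positive with median centring (0.05 and 0.10). Without replicate 1 of shGFP that for Ndufv2 was positive (0.003) and that for Ndufb5 negative (-0.02). Of the 20 genes, 18 had a positive difference and the median was 0.20.

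Complex II, which is built from 4 subunits and is also an enzyme of the citric acid cycle, had 1 gene that rose and 3 that did not pass. Sdhc, 1 of its membrane anchors, read 1586 and 1670 on the shTRPV4 arrays, against 1252 and 1325 on the shGFP arrays. The groups were apart, by 0.37 (1.29-fold, SE 0.06), with a limma adjusted p of 0.0499, at the edge of the threshold. The call was lost with the values as deposited (0.33, limma adjusted p = 0.0895) and with an offset of 1. As for the other calls, it was also lost with any 1 array left out and with a replicate block, which is not particular to this gene. Sdhb, the iron-sulfur subunit, read 2887 and 3050 on the shTRPV4 arrays, against 2282 and 2392 on the shGFP arrays (0.36, interval 0.18 to 0.53, limma adjusted p = 0.0522). Sdha, the flavoprotein that takes electrons from succinate, read 4568 and 4535 on the shTRPV4 arrays, against 3939 and 3832 on the shGFP arrays (0.23, interval 0.02 to 0.43). The further Sdha probe set, an _s_at one, differed by 0.39 (interval 0.19 to 0.59, limma adjusted p = 0.0529).

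Sdhd, the other membrane anchor, read 2385 and 2218 on the shTRPV4 arrays, against 2240 and 2277 on the shGFP arrays. These arrays overlapped, and the difference was 0.06 on this probe set and -0.02 on its further one. The median over the 4 genes was 0.29, and it ranged from 0.27 to 0.38 over the 10 alternative settings that can change a difference.

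Complex III held the lowest difference of all members beside several positive ones, and none of its 7 genes passed in either direction. Cyc1, the cytochrome c1 subunit that hands electrons to cytochrome c, read 2605 and 2791 on the shTRPV4 arrays, against 3450 and 3275 on the shGFP arrays. Both shTRPV4 arrays were the lower ones, with a difference of -0.32 (0.80-fold, interval -0.53 to -0.11, limma adjusted p = 0.0798). It was negative in the 10 alternatives that can change a difference, from -0.37 to -0.22, and 4 of all 14 alternatives called it lower. Averaging probe sets and leaving out _s_at or _x_at ones cannot change the value of Cyc1, whose only probe set is of another kind. Uqcrfs1, the Rieske iron-sulfur protein that passes electrons to Cyc1, read 4486 and 4719 on the shTRPV4 arrays, against 3615 and 3584 on the shGFP arrays, the highest difference of the complex (0.34, interval 0.15 to 0.53, limma adjusted p = 0.0618). No test compared the genes of the complex with each other.

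The core proteins Uqcrc1 and Uqcrc2 differed by 0.28 and 0.21, and the small subunits Uqcrq and Uqcrb by 0.24 and 0.15, all without overlap between the groups. Uqcrh, the hinge protein at the docking site of cytochrome c, read 4009 and 4287 on the shTRPV4 arrays, against 4432 and 4388 on the shGFP arrays (-0.08, interval -0.27 to 0.11), a sign that turned with median centring (0.01). The median over the 7 genes was 0.21.

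Cycs, the carrier between complexes III and IV, read 10612 and 9370 on the shTRPV4 arrays, against 10282 and 9530 on the shGFP arrays. The arrays overlapped on this representative probe set, and the difference was -0.05 (interval -0.38 to 0.28). Its further probe sets were at -0.22 and -0.10. On the first of these both shTRPV4 arrays were the lower ones (interval -0.425 to -0.013, limma adjusted p = 0.147). The sign of the representative was positive with the values as deposited (0.01), with median centring (0.11), without replicate 1 of shGFP (0.03) and without replicate 2 of shTRPV4 (0.06).

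**Figure D3:**
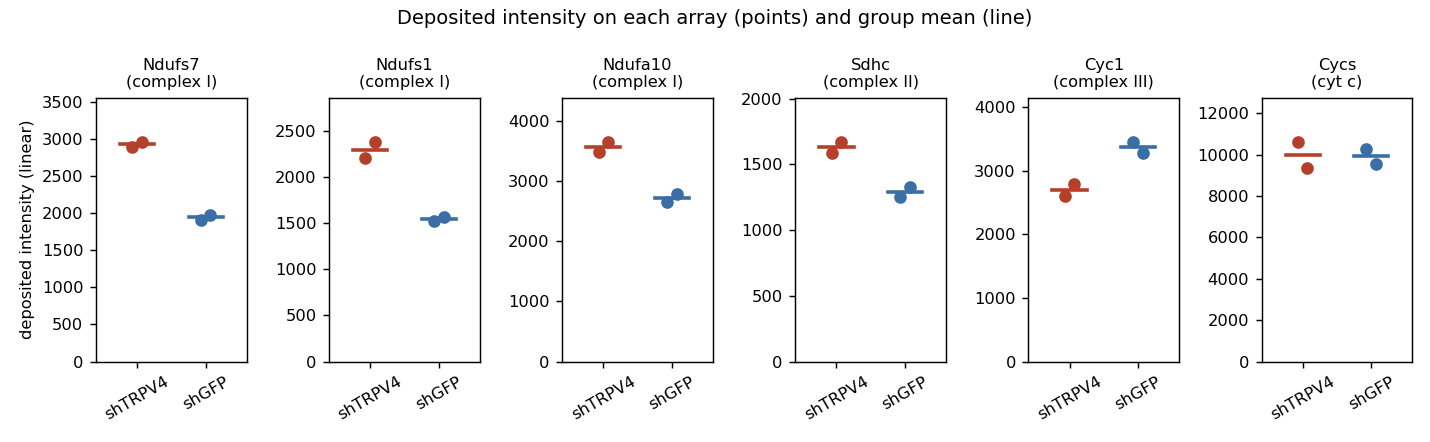
Deposited linear intensity (vertical axes, each from 0) of 6 genes on the 2 shTRPV4 and the 2 shGFP arrays, with points for arrays and a line for the group mean. Ndufs7, Ndufs1, Ndufa10 and Sdhc were higher on both shTRPV4 arrays, Cyc1 was lower on both, and the arrays overlapped for Cycs.

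Complex IV had the smallest median of the 4 complexes, 0.13, and none of its 9 genes passed. Its catalytic core is encoded by mitochondrial DNA, and the nuclear subunits surround it. Cox4i1, the ubiquitous form of a regulatory subunit, read 11395 and 11754 on the shTRPV4 arrays, against 9743 and 10026 on the shGFP arrays (0.17, interval -0.01 to 0.34). Cox5a, which assembles early together with Cox4i1, read 7117 and 6902 on the shTRPV4 arrays, against 7278 and 6883 on the shGFP arrays. These arrays overlapped (-0.08, interval -0.31 to 0.16), its 3 probe sets were all below 0, and the sign turned with median centring (0.08).

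Cox8a, the ubiquitous form of the smallest subunit, read 7825 and 8213 on the shTRPV4 arrays, against 6436 and 6382 on the shGFP arrays, the highest difference of the complex (0.26, interval 0.07 to 0.44, limma adjusted p = 0.0938). Cox5b, which binds zinc, read 9537 and 9804 on the shTRPV4 arrays, against 7727 and 7954 on the shGFP arrays (0.25, limma adjusted p = 0.0903). Both genes were apart between the groups. Cox7a2, Cox6a1, Cox6c and Cox6b1 differed by 0.17, 0.13, 0.13 and 0.08, also without overlap. Cox7c differed by 0.01 on a probe set that read only 80.0 to 98.6 on the 4 arrays, dimmer than any other representative of a member, and its sign changed in several settings. No test compared the medians of the complexes with each other. All 4 medians were above 0 in the 10 alternative settings that can change a difference, from 0.16 to 0.31 for complex I, from 0.14 to 0.33 for complex III and from 0.13 to 0.29 for complex IV.

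**Figure D4:**
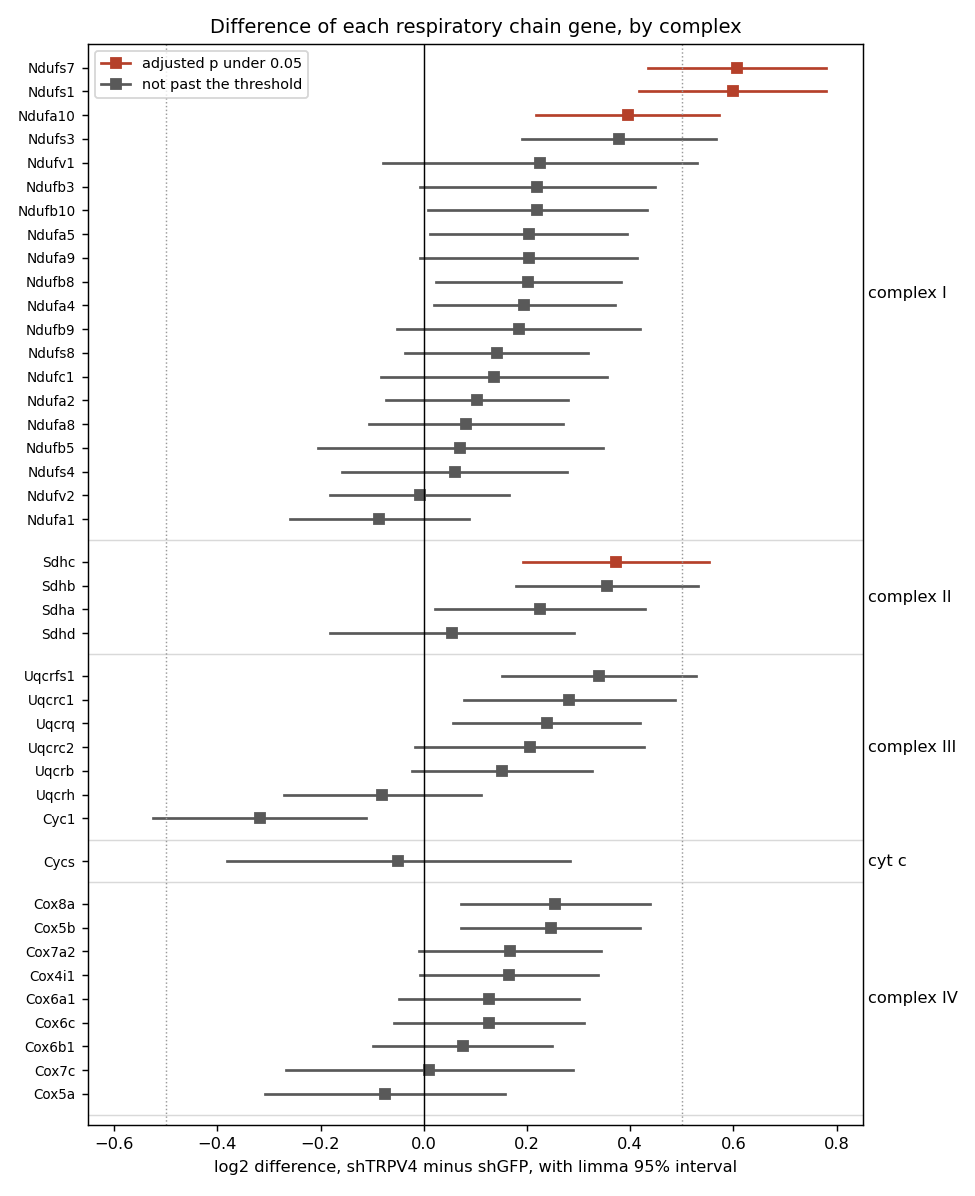
Log2 difference, shTRPV4 minus shGFP (horizontal axis), of each of 41 respiratory chain genes with its limma 95% interval, grouped by complex. Coloured symbols mark Ndufs7, Ndufs1, Ndufa10 and Sdhc, which passed the threshold, and dotted lines stand at -0.5 and 0.5, between which 32 intervals lie.

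The probe sets of a gene mostly had the same sign. Of the 41 genes, 25 had several probe sets, with 42 further ones beside the representatives. The sign matched that of the representative for 36 of the 42, and 5 of the 6 that differed had a mean intensity under 150. The exception was the further Sdhd probe set. Probe sets whose ID ends in _s_at or _x_at can read related transcripts, and 6 members were represented by one. Without that kind the calls were the same 4 genes, Ndufs7, Ndufs1, Ndufa10 and Sdhc. They are represented by other kinds of probe set, so this setting could not change their values or calls.

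The promoters of the genes that rose are shown because regulators of mitochondrial genes are known to bind close to the start sites of respiratory chain genes. RefSeq promoters (GRCm38.p6), 250 bases before to 50 after each start site, were found for 32 of the 42 genes, among them Ndufa10 and Ndufs7 but not Ndufs1 or Sdhc. They were searched on both strands for the site of NRF1, a factor of nuclear genes for mitochondrial proteins (GCGCA, then any single base, then GCGC), the ETS core CCGGAAG bound by GABP, and TCAAGGTCA, bound by estrogen-related receptors. The motifs do not contain one another. At least 1 motif was found for 12 of the 32 members (37.5%), against 23.8% of the 9887 measured genes with a promoter in the table. The NRF1 site was found for 6 members (18.8%, against 9.36%), the ETS core for 8 (25%, against 16.3%) and TCAAGGTCA for 1, Sdhd (3.12%, against 0.344%). No test was made of these shares.

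The windows of Ndufa10 and Ndufs7 held none of the 3 motifs, as did those of most of the 32 members. Sdha is shown as well because its window held 3 NRF1 sites, the most of any member. Whether the motifs go with the differences was not tested. The 250 bases before the start site, 5' to 3' on the gene's strand, are at chr1:92473759-92474008 (minus strand) for Ndufa10, chr10:80249199-80249448 (plus strand) for Ndufs7 and chr13:74350241-74350490 (minus strand) for Sdha, with NRF1 sites in capitals.
Ndufa10: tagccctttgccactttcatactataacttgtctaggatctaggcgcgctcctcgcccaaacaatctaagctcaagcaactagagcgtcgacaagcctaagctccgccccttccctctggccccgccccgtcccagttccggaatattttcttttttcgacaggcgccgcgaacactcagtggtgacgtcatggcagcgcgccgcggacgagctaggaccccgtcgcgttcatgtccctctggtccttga
Ndufs7: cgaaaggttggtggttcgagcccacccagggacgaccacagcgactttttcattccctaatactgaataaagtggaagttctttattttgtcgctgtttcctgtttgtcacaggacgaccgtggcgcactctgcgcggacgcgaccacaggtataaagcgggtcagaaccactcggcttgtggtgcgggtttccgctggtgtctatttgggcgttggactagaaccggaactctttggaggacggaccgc
Sdha: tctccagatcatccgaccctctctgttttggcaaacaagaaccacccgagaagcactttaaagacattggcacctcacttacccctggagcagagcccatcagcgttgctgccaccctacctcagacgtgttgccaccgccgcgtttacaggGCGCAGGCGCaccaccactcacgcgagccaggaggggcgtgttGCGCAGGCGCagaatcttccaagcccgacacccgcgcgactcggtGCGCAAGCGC

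Genes next to the members in the pathway were read from the same arrays. Their counts of calls stand beside 5.33% of all genes called higher and 6% lower. Among genes above the median intensity these shares were 7.98% and 8.45%. The lists are small, and no test compared their counts with these shares. Of 15 further nuclear subunits of complexes I to IV, 2 rose, 0 fell and 13 did not pass, with a median of 0.22. Ndufs5, an accessory subunit of complex I, read 3191 and 3341 on the shTRPV4 arrays, against 2235 and 2235 on the shGFP arrays (0.56, limma adjusted p = 0.0286). Ndufb7, another one, read 2977 and 3243 on the shTRPV4 arrays, against 2337 and 2297 on the shGFP arrays (0.44, limma adjusted p = 0.0488, and 0.0649 without normalization). Of 17 genes of ATP synthase, which spends the proton gradient, and of its inhibitor factor, 0 passed in either direction with limma (3 had an unadjusted p under 0.05), with a median of 0.07 and a range from -0.11 for the inhibitor Atpif1 to 0.27 for Atp5a1, the alpha subunit. Of the 13 subunits encoded by mitochondrial DNA, 1 was measured, ND5 of complex I. It read 8717 and 9044 on the shTRPV4 arrays, against 8351 and 7714 on the shGFP arrays. The arrays overlapped after normalization (0.09, interval -0.14 to 0.31).

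Of 31 measured assembly factors, which help to build the complexes without being part of them, 5 rose, 0 fell and 26 did not pass. The median was 0.12, with a range from -0.31 for Ttc19 to 0.59 for Ndufaf3, neither of which passed. Both shTRPV4 arrays lay above both shGFP arrays for 20 and below for 6, against 33.2% and 27.7% of all genes. The interval lay above 0 for 13 and below 0 for 4, against 17.9% and 15.2% of all genes. Ecsit, needed for complex I, read 373 and 370 on the shTRPV4 arrays, against 269 and 271 on the shGFP arrays (0.50, limma adjusted p = 0.0351). Its 2 arrays of each group were nearly equal. Uqcc1, which acts on complex III, read 501 and 552 on the shTRPV4 arrays, against 378 and 384 on the shGFP arrays (0.50, limma adjusted p = 0.0382). Uqcc3, another factor of complex III, read 908 and 914 on the shTRPV4 arrays, against 698 and 721 on the shGFP arrays (0.39, limma adjusted p = 0.0459). These groups did not overlap. Cox15, which makes the heme of complex IV, read 1211 and 1223 on the shTRPV4 arrays, against 903 and 884 on the shGFP arrays (0.47, limma adjusted p = 0.0442). Ndufaf7, a methyltransferase of complex I, read 656 and 697 on the shTRPV4 arrays, against 506 and 535 on the shGFP arrays (0.41, limma adjusted p = 0.0413). Without normalization the calls for Uqcc1, Uqcc3 and Ndufaf7 ended (limma adjusted p = 0.0613, 0.0687 and 0.0779), and with the probe sets of a gene averaged those for Uqcc1 and Cox15 did (0.0813 and 0.0986). The Cox15 and Ndufaf7 probe sets are of the kind that can read related transcripts.

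Of 7 measured isoforms that replace ubiquitous subunits in muscle, brown fat, lung or testis, 1 rose, 0 fell and 6 did not pass, with a median of 0.03. Cox8b, which takes the place of Cox8a in heart, muscle and brown fat of mice, read 80.5 and 64.2 on the shTRPV4 arrays, against 21.4 and 16.8 on the shGFP arrays (1.38, SE 0.14, limma adjusted p = 0.0228). The shGFP values lie near the offset of 16, which sets the size. With an offset of 1 the difference was 1.94 and the call was lost (limma adjusted p = 0.0528), and with an offset of 64 it was 0.74 (limma adjusted p = 0.0106). Cox6a2, the heart and muscle form of Cox6a1, read 155 and 139 on the shTRPV4 arrays, against 113 and 121 on the shGFP arrays (0.38, limma adjusted p = 0.0800). Those groups were apart. Cox7a1, the heart and muscle form of Cox7a2, read 107 and 90.9 on the shTRPV4 arrays, against 121 and 109 on the shGFP arrays (-0.10, interval -0.44 to 0.24). Cox4i2, the lung form of Cox4i1, read 50.03 and 78.69 on the shTRPV4 arrays, against 78.99 and 91.24 on the shGFP arrays (-0.29, interval -0.88 to 0.29). The arrays of Cox7a1 and of Cox4i2 overlapped after normalization, while both shTRPV4 arrays were the lower ones as deposited.

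Of 12 regulators of respiratory chain transcription, 2 rose, 0 fell and 10 did not pass, with a median of 0.18. Both shTRPV4 arrays lay above both shGFP arrays for 7 and below for 3, against 33.2% and 27.7% of all genes. Pprc1 had the lowest difference (-0.46, interval -0.72 to -0.20, limma adjusted p = 0.0639), and Gabpb1 differed by -0.335 (interval -0.67 to 0.002). Ppargc1b, a coactivator of mitochondrial genes, read 826.0 and 826.1 on the shTRPV4 arrays, against 360.7 and 394.5 on the shGFP arrays (1.15, SE 0.07, limma adjusted p = 0.0155). Tfb1m, which methylates mitochondrial ribosomal RNA, read 677 and 664 on the shTRPV4 arrays, against 478 and 536 on the shGFP arrays (0.44, limma adjusted p = 0.0464). That call ended without normalization (limma adjusted p = 0.0822) and where _s_at probe sets were not used (0.0650). Ppargc1a, a relative of Ppargc1b, read 59.4 and 93.7 on the shTRPV4 arrays, against 57.9 and 69.2 on the shGFP arrays, on its brightest probe set (0.27, limma adjusted p = 0.475), and rose on 3 of its 5 probe sets, all dim. That brightest one is an _x_at probe set. Without this kind Ppargc1a rose by 1.24 (limma adjusted p = 0.0171), with its probe sets averaged by 0.76 (limma adjusted p = 0.0153), and without replicate 2 of shTRPV4 the difference of the brightest was -0.001. Esrra, which encodes an estrogen-related receptor, read 513 and 456 on the shTRPV4 arrays, against 306 and 258 on the shGFP arrays (0.80, limma adjusted p = 0.0559). Nrf1 and Gabpa, which encode NRF1 and a GABP subunit, differed by -0.09 and 0.17 and did not pass. With an offset of 1 Ppargc1b was the only one of the 10 named calls that stayed (limma adjusted p = 0.0468). The calls of these related lists were also lost with any 1 array left out or with a replicate block, which is not particular to these genes.

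**Figure D5:**
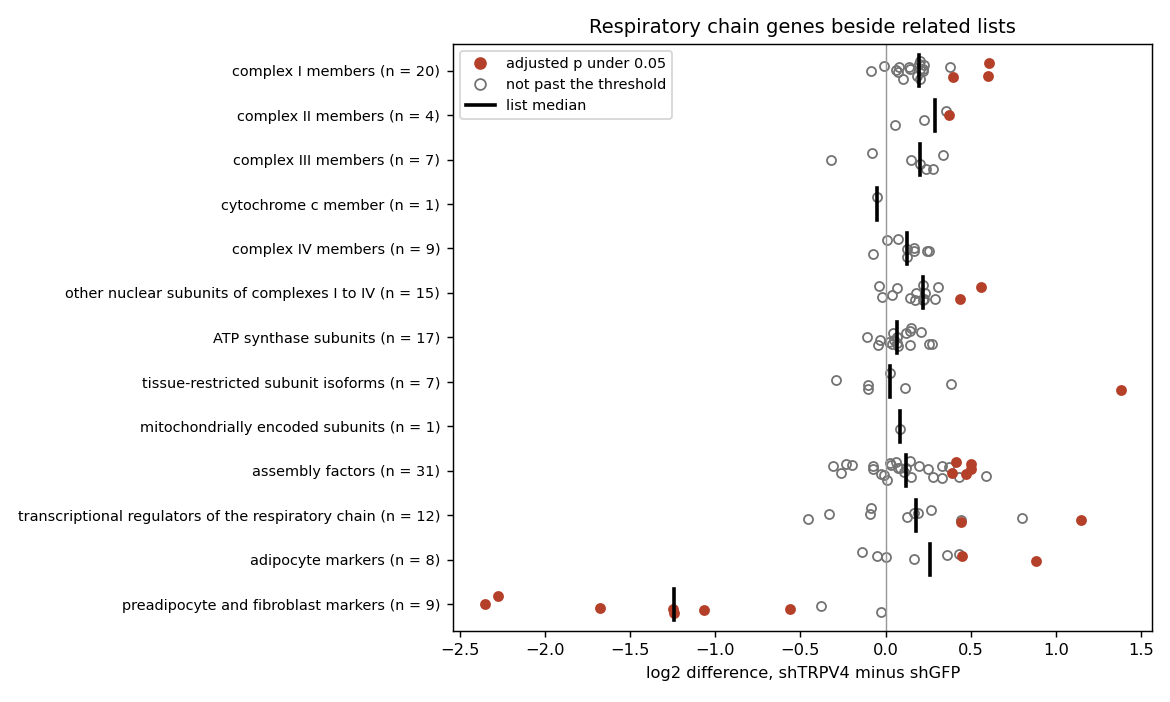
Log2 difference, shTRPV4 minus shGFP (horizontal axis), of each gene of the respiratory chain by complex, of related lists and of fat cell and preadipocyte markers, with filled points for genes past the threshold and a black line at the list median. Medians were 0.20, 0.29, 0.21 and 0.13 for complexes I, II, III and IV, 0.07 for ATP synthase, and -1.24 for the preadipocyte and fibroblast markers.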

How the data were processed

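RNA of 4 samples labelled shTRPV4 or shGFP (2 each, grouped by title) was hybridised to Affymetrix mouse arrays. The authors deposited 1 linear intensity per probe set and array, and the sources used here do not give their summarisation, scaling or genome build. Scanner files and detection calls are not used here. Array medians ran from 129.4 to 144.0, a span of 0.14 on the log2(intensity + 16) scale, so the log2 values, computed here from the deposited intensities, were quantile normalized. A linear model per probe set was made by lmFit and eBayes (limma 3.58.1, R 4.3.3) over all 22626 probe sets, with 2 residual and 1.8 prior degrees of freedom and Benjamini-Hochberg adjustment, and the script was tested on simulated data. The number of arrays limits the precision.

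The platform's annotation named 1 gene for 20380 probe sets, several for 691 and none used here for 1555. RefSeq (GRCm38.p6) matched 20351 of the single-gene ones and changed 0 symbols. Members and lists were chosen with earlier results of these data known. Any of the 42 members could be named. Full values went to those that passed, to the highest and lowest of each complex, to the redox subunits, to genes of related lists that passed, to the isoforms Cox8b, Cox7a1, Cox6a2 and Cox4i2 and Ppargc1a, and to the listed Cox4i1. Those of Ndufs3, Ndufv2, Uqcrh, Cox5b and Esrra were added after their values were seen. So were the names Nrf1, Gabpa, Pprc1, Gabpb1, Ttc19 and Ndufaf3. Other scalings, offsets, filters, probe set rules, a replicate block and each array left out were tried. Macrophage markers gave 1 rise and 3 falls among 8, endothelial markers 0 and 0 among 4, and skeletal muscle markers 1 and 0 among 5.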

Additional observations from a re-analysis of the deposited data

How the results depend on the processing

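The direction of most members held and the number of calls did not. Of 14 alternatives, 4 (both intensity filters, the trend and the replicate block) leave every difference as it is and bear only on the calls. Of 409 differences of members under the other 10, 392 had the sign reported above, the 17 others belonged to 8 genes, and 0 of the 17 were past the threshold in either setting. Part of the 409 could not change. Averaging leaves the 16 genes with 1 probe set as they are, and leaving out _s_at or _x_at probe sets bears only on the 6 genes represented by one. The median over the 41 genes was 0.21 with the values as deposited, 0.31 with median centring and 0.16 with the probe sets of a gene averaged, and it ran from 0.15 to 0.18 with 1 array left out, against 0.18 reported.

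Against 4 genes higher and 0 lower, limma called 2 and 0 with the values as deposited, 9 and 0 with median centring, 0 and 0 with an offset of 1 (13 and 1 at an unadjusted p under 0.05), 11 and 1 with an offset of 64, 7 and 1 without probe sets under the 25th percentile, 16 and 1 without those under the 50th, 17 and 1 with an intensity trend, and 7 and 0 with probe sets averaged. The gene called lower was Cyc1 in each of the 4 cases. The probe sets called higher were 2, 16, 0, 20, 13, 27 and 29 in the first 7 of these settings, with 1 lower for the offset of 64, the 25th percentile and the trend and 2 lower for the 50th. Averaged probe sets give no such count. These member counts are out of 41 genes, or 40 at the 50th percentile. Over all genes, 380 (3.07%) were higher as deposited and 1036 (8.36%) with median centring. An offset of 1 gave 116 higher (0.936%) and 271 lower, and an offset of 64 gave 1356 (10.9%) and 1221. Of the 9632 genes left at the 25th percentile, 1298 (13.5%) were higher and 1189 lower. Of the 6817 left at the 50th, 1714 (25.1%) were higher and 1370 lower. The trend gave 1408 higher (11.4%) and 1236 lower, and averaging 799 (6.45%) and 804. No test compared the member counts with these shares. The cause of the changes between settings was not tested.

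With 1 array left out, members, probe sets and all genes had from 0 to 0 calls in either direction, with 7 to 13 members higher and 0 to 1 lower at an unadjusted p under 0.05. In those fits the lone array of a group is assumed to vary like the other group. The replicate block also called 0 of each (13 members higher and 1 lower at an unadjusted p under 0.05). The labels do not say that the replicate numbers pair the arrays, and the deviations of same-numbered arrays correlated by 0.12. These 5 fits have 1 residual degree of freedom. No detection limit was given for dim probe sets, such as those of Cox7c, Trpv4, Ppargc1a and the tissue isoforms.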

Other observations

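Some members had probe sets that did not read alike. Ndufs4 differed by 0.06 on its brightest probe set and by 0.09 on another, while its dimmest, at 194 and 211 on the shTRPV4 arrays, against 107 and 147 on the shGFP arrays, differed by 0.71 (limma adjusted p = 0.0645). The spread of 0.65 between these probe sets was larger than the difference of any member. Next came Cox5b with a spread of 0.48, where the lowest probe set read 19.7 or less on every array, and Uqcrq with 0.44, where 3 of 4 probe sets read 103 or less. In contrast, the probe sets of Sdhc differed from each other by 0.02, those of Ndufv2 by 0.01 and those of Ndufs7 by 0.06.

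Across 10 settings with 2 residual degrees of freedom, Ndufs7 and Ndufs1 passed in 9 each, Ndufa10 and Sdhc in 8 each, and Ndufs3, Sdhb and Uqcrfs1, which were not called above, in 6 each. The 10 include the reported setting itself. They also include the one without _s_at or _x_at probe sets, which repeats the reported result for these genes. The settings share the same arrays and are not independent. Of the 41 members, 22 passed in 0 of these settings. These include Ndufv1, Ndufs8 and Cox5a.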
